A study of Mus musculus with 20 samples.

Results

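The cell cycle genes examined here were 38 genes, listed by name, whose products copy DNA, condense and part the chromosomes, or drive a cell from one phase of the cycle to the next. All 38 were found by symbol among the 24411 genes of the deposited tables. They fell into 9 roles: proliferation marker and chromosome structure (Mki67, Top2a), mitotic kinases and the spindle checkpoint (7 genes), cyclins (4), partners of the anaphase-promoting complex (2), chromosomal passenger and kinetochore proteins (4), spindle motors and microtubule proteins (6), origin licensing with the MCM helicase (8), DNA synthesis (3) and transcription factors (2).

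RNA was taken from the apical coil of the mouse cochlea, with the sensory epithelium and spiral ganglion neurons, at postnatal day 7 (P7) and day 22 (P22). Heterozygous Bai1tm2b/+ mice were the controls, and their homozygous Bai1tm2b/tm2b littermates were the mutants, both on the C57BL/6N strain and of both sexes. The tm2b allele lacks exons 3 and 4 of Adgrb1, the gene of the adhesion receptor BAI1, carries a lacZ insert in their place and is present in every cell, so that the long isoform is lost and the short isoform is kept. The controls carried 1 copy of this allele, and no wild-type library was used. Each library was a pool of 4 mice according to the methods.

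There were 6 libraries at P22 (3 of each genotype) and 14 at P7 (7 of each genotype). The P22 libraries and libraries 5 to 7 of each genotype at P7 were held as estimated read counts, with totals of 31108551 to 58807173, whereas libraries 1 to 4 of each genotype at P7 held whole numbers that were taken to be rounded TPM (transcript abundance corrected for length and relative to all transcripts of the library), of unknown depth. No source used here states that unit, which was read from the values, all whole and with sums of 999644 to 999777 in each library. Levels of the libraries in counts are given below as CPM (read counts relative to the library total, scaled by the TMM method). Adgrb1, summed over its isoforms, lay at 137 to 151 CPM in the heterozygous and 90.8 to 95.8 CPM in the homozygous P22 libraries, at 35.5 to 61.5 and 23.8 to 34.3 CPM in the P7 libraries in counts, and at 7.68 to 12.1 and 8.60 to 11.1 TPM, with overlap, in those in rounded TPM. To be called, a gene needed a log2 fold change beyond 0.5 in either direction with a standard error (SE) under 0.5, and an adjusted p under 0.05. In such bulk samples, fewer cells of a type and less RNA per cell cannot be told apart.

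A dividing cell licenses its replication origins by loading the MCM2-7 helicase with the help of CDC6 and CDT1, copies its DNA with PCNA as the sliding clamp, and then builds up mitotic cyclins and kinases that condense the chromosomes, form the spindle and release the sister chromatids. Many mitotic genes share a late, G2 to M, peak that is driven by MYBL2 and FOXM1 through CHR and CCAAT elements in their promoters, whereas many genes of origin licensing and DNA synthesis carry E2F sites and peak earlier. In the mammalian cochlea, hair cells and supporting cells leave the cycle before birth, and neurons of the spiral ganglion do not divide, while glia, fibroblasts, endothelium, bone and blood cells keep dividing for longer.

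Promoters of 5 members are shown as examples of mitotic genes (Mki67, Top2a, Ccnb2) and of helicase genes (Mcm5, Mcm6), so that the elements named above can be seen in sequence. RefSeq promoters were found for 31 of the 38 members (build GRCm38.p6). Each run below covers the 200 bases before the annotated start, 5′ to 3′ in the direction of the gene. Capitals mark matches, on either strand, to the CHR (TTTGAA or TTCGAA), to CCAAT, and to E2F (TTTCCCGC, TTTCGCGC, TTTGCCGC or TTTGGCGC).
Mki67 (chr7:135716380-135716579, minus strand): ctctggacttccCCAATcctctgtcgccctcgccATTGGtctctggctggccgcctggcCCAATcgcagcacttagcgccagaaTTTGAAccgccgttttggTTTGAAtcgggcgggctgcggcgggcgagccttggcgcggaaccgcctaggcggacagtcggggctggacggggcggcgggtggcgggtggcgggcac
Top2a (chr11:99024190-99024389, minus strand): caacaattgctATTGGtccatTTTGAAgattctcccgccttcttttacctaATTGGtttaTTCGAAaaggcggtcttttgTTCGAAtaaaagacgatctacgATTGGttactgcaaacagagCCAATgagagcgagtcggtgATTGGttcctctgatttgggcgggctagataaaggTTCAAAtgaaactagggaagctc
Ccnb2 (chr9:70421555-70421754, minus strand): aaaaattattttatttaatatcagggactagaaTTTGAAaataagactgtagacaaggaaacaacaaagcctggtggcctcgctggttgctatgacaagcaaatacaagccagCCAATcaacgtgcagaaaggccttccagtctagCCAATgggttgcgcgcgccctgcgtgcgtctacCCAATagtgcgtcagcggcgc
Mcm5 (chr8:75109309-75109508, plus strand): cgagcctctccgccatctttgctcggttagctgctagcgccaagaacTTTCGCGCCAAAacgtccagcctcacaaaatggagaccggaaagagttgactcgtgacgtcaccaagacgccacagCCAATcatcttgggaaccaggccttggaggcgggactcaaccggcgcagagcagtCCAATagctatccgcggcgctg
Mcm6 (chr1:128359706-128359905, minus strand): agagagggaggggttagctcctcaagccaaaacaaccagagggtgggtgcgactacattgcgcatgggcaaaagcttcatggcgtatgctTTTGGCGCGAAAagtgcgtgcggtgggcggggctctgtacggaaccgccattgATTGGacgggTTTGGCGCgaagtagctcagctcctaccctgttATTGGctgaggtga

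The mitotic genes Mki67, Top2a and Ccnb2 held CHR and CCAAT letters and no E2F match, and the helicase genes Mcm5 and Mcm6 held CCAAT and E2F letters and no CHR match. Counted over windows of 250 bases before to 50 after the start, a CHR was found in 18 of 31 members (58.1%) against 19.4% of all 27025 promoters. CCAAT was found in 25 of 31 (80.6%) against 37.9%, and 2 or more CCAAT in 16 of 31 (51.6%) against 12.2%. An E2F match was found in 7 of 31 (22.6%) against 2.32%. Members of the same role differed: a CHR was found in 16 of 20 promoters of mitotic genes but not in Ccnb1, Birc5, Nusap1 or Cenpe, and in 2 of 7 promoters of licensing genes, Mcm2 and Mcm7. An E2F match was found in 6 of these 7, all but Mcm2, and in 1 mitotic gene, Cdk1. It was found in 0 of 3 promoters of DNA synthesis genes, although such sites are described for genes of that role. Matches to adjacent or reversed letters can overlap, as in the joined E2F run of Mcm5, and a match is a description of letters only.

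The question of the first comparison was whether the cell cycle genes changed between P7 and P22, while the cochlea matures. All 38 members were lower at P22 in the 6 P22 libraries than in the 6 P7 libraries in counts, and all 38 had an adjusted p under 0.05 in edgeR, as did 80.3% of all genes tested. Of these, 35 were called lower, whereas 28.7% of the 16314 genes tested were called lower. Aurkb, Bub1 and Ttk had too few reads at P22 to pass the filter on low counts there. They were tested only through the P7 libraries, where they had to be higher, so their falls are no support. Aurkb and Ttk are among the 35. The median log2 fold change of the members was -2.26, a 4.78-fold fall, against a median of -0.05 over all genes tested. In 36 of the 38 members every P22 library lay below every P7 library, which held for 32.0% of all genes. The methods describe the P22 libraries as a batch apart from those of P7, and they are held in another table, so age, batch and table cannot be told apart. In the account of age, CPM were scaled over these 12 libraries together, whereas in the comparisons of genotype they were scaled within each age, so that the 2 values of a library differ.

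The largest falls were those of mitotic genes. Bub1, a kinase of the spindle checkpoint, was at 2.81, 4.66 and 3.24 CPM in the heterozygous and 4.92, 2.62 and 2.78 CPM in the homozygous P7 libraries. At P22 it was at 0.12, 0.06 and 0.00 CPM in the heterozygous and 0.79, 0.05 and 0.08 CPM in the homozygous libraries. It was nearly unread at P22 outside homozygous library 1, which held 29 of its reads where the other 5 libraries held 0 to 4. Its log2 fold change was -4.64 ± 0.55 (SE; adjusted p = 5.02e-06), and it was not called because the SE passed the limit.

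Ccnb1, the cyclin that activates CDK1 at the entry into mitosis, fell 24.3-fold. Its levels were 7.16, 10.8 and 7.03 CPM in the heterozygous and 10.4, 7.52 and 7.79 CPM in the homozygous P7 libraries. At P22 they were 0.40, 0.06 and 0.18 CPM in the heterozygous and 0.46, 0.98 and 0.22 CPM in the homozygous libraries. The log2 fold change was -4.60 ± 0.33 (SE; adjusted p = 3.55e-08), and the 2 ages were far apart in every library. Aurkb, the kinase of the chromosomal passenger complex, fell 17.7-fold (log2 fold change -4.15 ± 0.27 SE, adjusted p = 1.39e-08) from a mean of 5.39 to 0.311 CPM over 6 libraries each. Like Bub1, it passed the filter on low counts only through the P7 libraries, so its test is no support.

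Top2a, the topoisomerase that untangles chromosomes for mitosis, fell 16.5-fold. Its P7 levels were 26.3, 32.3 and 24.9 CPM in the heterozygous and 40.2, 21.6 and 28.1 CPM in the homozygous libraries. Its P22 levels were 1.47, 1.92 and 0.67 CPM in the heterozygous and 3.39, 2.31 and 1.09 CPM in the homozygous libraries. The lowest P7 library stood well above the highest P22 library, and the log2 fold change was -4.05 ± 0.27 (SE; adjusted p = 1.78e-08). Cenpf, a kinetochore protein of G2 and mitosis, fell 11.4-fold (-3.51 ± 0.22 SE, adjusted p = 1.23e-08).

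Mki67, which encodes the proliferation antigen Ki-67, fell 8.41-fold (log2 fold change -3.07 ± 0.37 SE, adjusted p = 4.94e-06). At P7 it was at 22.4, 23.2 and 20.7 CPM in the heterozygous and 64.9, 19.4 and 21.3 CPM in the homozygous libraries. At P22 it was at 2.18, 1.57 and 1.91 CPM in the heterozygous and 9.68, 5.36 and 2.40 CPM in the homozygous libraries. Within each age, 1 or 2 homozygous libraries stood above the rest, but the groups of the 2 ages did not overlap. Cdk1, the kinase that these cyclins activate, fell 4.73-fold, from 8.91 ± 1.14 to 1.88 ± 0.259 CPM (SD, n = 6; adjusted p = 4.35e-09).

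The smallest falls were those of genes of DNA synthesis, origin licensing and the start of S phase. Pcna, the sliding clamp, was at 53.0, 57.7 and 52.8 CPM in the heterozygous and 54.0, 51.4 and 55.2 CPM in the homozygous P7 libraries. At P22 it was still at 43.1, 51.1 and 47.9 CPM in the heterozygous and 52.2, 50.1 and 47.6 CPM in the homozygous libraries. The ages overlapped, and the log2 fold change of -0.15 ± 0.05 (SE; adjusted p = 0.0176) was under the limit of size.

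Ccne2, a cyclin of the start of S phase, also overlapped between ages, with a log2 fold change of -0.41 ± 0.12 (SE; adjusted p = 0.00750). Pcna and Ccne2 were, with Bub1, the members not called. Cdc20, an activator of the anaphase-promoting complex, changed by -0.61 ± 0.08 (SE; adjusted p = 1.63e-05), Mcm4 of the helicase by -0.69 ± 0.06 (SE; adjusted p = 1.58e-07) and Cdt1, the licensing factor, by -0.80 ± 0.15 (SE; adjusted p = 2.47e-04). Cdc20 was the one member of a mitotic role among these 5.

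By role, the median log2 fold change ran from -3.56 for the proliferation marker and chromosome structure genes and -3.13 for the cyclins to -1.35 for origin licensing and the helicase. The chromosomal passenger and kinetochore genes had a median of -2.70, the spindle motors and microtubule proteins of -2.54 and the mitotic kinases and checkpoint genes of -2.35. The kinase and checkpoint group holds Aurkb, Bub1 and Ttk, which were tested only through the P7 libraries. All 8 licensing genes were called lower, with changes of -0.69 (Mcm4) to -2.21 (Cdc6), all smaller than the median of the spindle group. Rrm2, a subunit of ribonucleotide reductase, and Tyms, thymidylate synthase, fell 4.17-fold and 4.19-fold, unlike Pcna of the same role. The transcription factors Foxm1 and Mybl2 fell 7.03-fold and 3.70-fold. No difference between roles was tested, since the members were few and their levels at P22 differed widely.

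**Figure D1:**
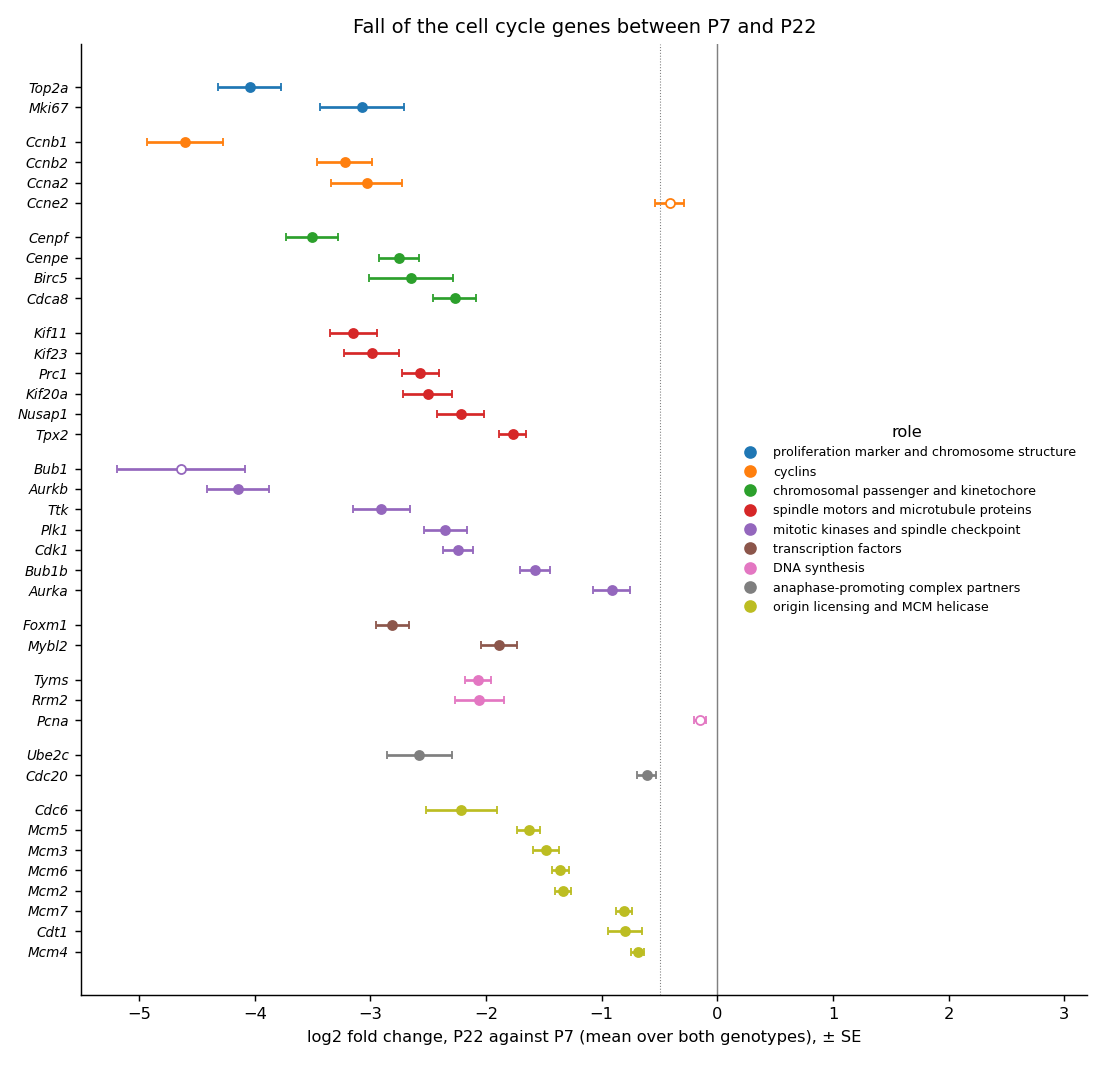
Log2 fold change of each of the 38 genes between P7 and P22 (x axis, mean over both genotypes, bars are SE, 12 libraries), with genes grouped and coloured by role and roles ordered by their median. Open circles are the 3 genes that were not called; the dotted line is the size limit of -0.5. Ccnb1 (-4.60) and Top2a (-4.05) lie far to the left, and Pcna (-0.15) and Ccne2 (-0.41) lie beside 0.

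The order of the genes within a library changed accordingly. Per kilobase of exon, Pcna was the highest member at both ages, at 22.5 CPM per kb at P7 and 20.3 at P22, and Mcm7 was the next, at 8.76 and 5.02 CPM per kb. Top2a went from rank 12 of 38 to rank 29 (3.21 to 0.201 CPM per kb), and Ccnb1 from rank 21 to 34. Cdt1 rose in rank from 19 to 8 and Ccne2 from 28 to 11, although both had a lower level at P22. On the TPM scale of the other P7 libraries, Pcna also had the highest mean, at 133 TPM, ahead of Mcm7 at 30.8 TPM and Ube2c at 26.7 TPM. Ube2c, the ubiquitin-conjugating enzyme of the anaphase-promoting complex, ranked only 13 per kilobase of exon in the P7 libraries in counts. Reads of Kif20a, Ube2c, Ccne2, Ccna2 and Prc1 may include some of a gene on the other strand, since 29.3%, 22.8%, 17.4%, 12.5% and 11.1% of their exon bases lie over one.

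The fall was seen in both genotypes. In the heterozygous libraries alone, 33 members were called lower, against 27.0% of all genes, with a median of -2.51, and in the homozygous libraries alone 34 were, against 25.1%, with a median of -2.07. The age by genotype interaction, which tests the difference between these 2 falls, called 0 members in edgeR, where 0.0306% of all genes were called in either direction. At an unadjusted p under 0.05 there was 1 member, Cdc20, against 10.2% of all genes. DESeq2 also called 0 members. The smallest adjusted p among the members was 0.322, for Cdc20, whose log2 interaction was 0.52 ± 0.16 (SE). The interaction was above 0 in 36 of 38 members, with a median of 0.24, against 54.3% of all genes and a median of 0.02. The median of the members was 0.11 without P22 homozygous library 1, 0.13 without P7 heterozygous library 6 or P7 homozygous library 6, and 0.42 without P7 homozygous library 5.

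Marker lists of other cells moved with age in both directions, where 28.7% of all genes were called lower and 25.9% higher. All 7 listed bone markers (Bglap, Ibsp, Sp7, Col1a1, Dmp1, Alpl and Runx2) were called lower at P22, and their summed level was 990 to 2485 CPM in the P7 libraries and 174 to 436 CPM in the P22 libraries, each scaled within its own set. Of 8 neuronal markers, 7 were called higher at P22 and 1, Gata3, lower. Of 7 hair cell markers 4 were called lower and none higher, and of 6 Schwann cell markers 5 were called higher. Of 7 macrophage markers 4 were called lower and 0 higher, and of 7 supporting cell markers 4 were called lower and 2 higher. Of the erythroid markers 4 were called higher and 1 lower, of the neutrophil markers 2 lower and of the B cell progenitor markers 1 lower. The hair cell gene Atoh1 was at 0.05 CPM or less in 5 of the 6 P22 libraries. The part of a changed makeup of the tissue in the fall of the members was not tested.

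Regulators of the G1 phase decide whether a cell enters the cycle. Of the 39 listed, 38 were tested, with a median log2 fold change of -0.81. In all, 21 were called lower, against 28.7% of all genes. The 9 called higher were a share like the 25.9% of all genes. The largest falls were those of E2f7 and E2f8, atypical E2F repressors that peak in S phase, at -3.70 ± 0.42 and -3.06 ± 0.40 (SE), and of Ccnd1, cyclin D1, at -2.64 ± 0.06 (SE). Ccnd1 went from 136 ± 9.38 to 21.8 ± 2.43 CPM (SD, n = 6). The largest rises were those of Gadd45g, a stress-induced growth arrest gene, at 1.42 ± 0.10, E2f6, an E2F family repressor, at 1.42 ± 0.05, and Ccne1, cyclin E1, at 0.80 ± 0.11 (SE).

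Among inhibitors of cyclin-dependent kinases, which were also picked out after their values were seen, Cdkn1b (p27) rose from 223 ± 19.3 to 386 ± 17.0 CPM and Cdkn2d (p19) from 32.8 ± 3.35 to 56.1 ± 2.27 CPM, whereas Cdkn1c (p57) fell from 190 ± 23.7 to 63.0 ± 8.08 CPM (SD, n = 6). Cdkn1a (p21), the target of p53, was at 158 ± 16.1 and 144 ± 6.61 CPM, with an adjusted p of 0.0563. Of 75 further cell cycle genes outside the 38, 60 were called lower and 5 higher, against 28.7% and 25.9% of all genes. The 5 were Anln, Wee1, Ccne1, Fen1 and Gmnn, named here after their values were seen.

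The next comparison asked whether loss of the long isoform of BAI1 changed the cell cycle genes at P22. Of the 38 members, 35 passed the filter on low counts, and Aurkb, Bub1 and Ttk, with 0 to 29 reads in each library, did not. Only Mki67 was called, higher in the homozygous libraries, and 0 members were called lower, whereas 1.74% of the 15443 genes tested were called higher. The log2 fold changes leaned upward without passing the test: 34 of 35 were above 0, with a median of 0.35, against 52.4% of all genes and a median of 0.01. Among them, Ccnb1 and Ccnb2 had too few heterozygous reads to pass the filter without the homozygous libraries, so their direction is no support. Adjusted p was under 0.05 for 2 members that were higher, Mki67 and Cdc20, against 5.04% of all genes. That share of members is near that of all genes.

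Mki67 was at 1.97, 1.41 and 1.72 CPM in the heterozygous libraries 1 to 3 and at 8.76, 4.86 and 2.18 CPM in the homozygous libraries 1 to 3. All 3 homozygous libraries stood above all heterozygous ones, but homozygous library 3 did so by little and library 1 held 4.01 times the level of library 3. The means were 1.70 ± 0.278 and 5.27 ± 3.31 CPM (SD, n = 3), a log2 fold change of 1.63 ± 0.41 (SE) with an adjusted p of 0.0282 in edgeR. The call was lost when any library but homozygous library 3 was left out, with log2 fold changes of 1.05 to 1.74. Without homozygous library 1, for example, it was 1.05 with an adjusted p of 0.0816, and without heterozygous library 2, 1.51 with an adjusted p of 0.0522.

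Cdc20 showed the other pattern, a small difference that all homozygous libraries shared. It was at 5.69, 6.17 and 5.35 CPM in the heterozygous and at 7.19, 8.22 and 7.83 CPM in the homozygous libraries. The log2 fold change was 0.43 ± 0.13 (SE; adjusted p = 0.0477), under the limit of 0.5. Tpx2, Cdca8, Mybl2, Cdc20 and Mki67 were the 5 members in which every homozygous library was above every heterozygous one, against 15.8% of all genes, a like share of those tested. At an unadjusted p under 0.05 there were 7 of the 35 members, against 28.7% of all genes, a larger share than that of the members.

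The other named members overlapped between genotypes. Top2a was at 1.33, 1.73 and 0.61 CPM in the heterozygous and 3.07, 2.09 and 0.99 CPM in the homozygous libraries (log2 fold change 0.75 ± 0.44 SE, adjusted p = 0.289). Ccnb1 was at 0.36, 0.06 and 0.16 against 0.42, 0.89 and 0.20 CPM (1.38 ± 0.67 SE, adjusted p = 0.208). Its 13, 2 and 6 heterozygous reads were too few to pass the filter on low counts without the homozygous libraries. Rrm2 was at 2.19, 2.21 and 2.39 against 4.37, 3.80 and 2.16 CPM (0.61 ± 0.25 SE, adjusted p = 0.143). In Top2a and Rrm2, homozygous libraries 1 and 2 were above all others and library 3 lay among the heterozygous libraries.

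Ube2c and Ccna2, named after their values were seen, had this same shape, with 2.53 and 2.19 CPM of Ube2c and 3.19 and 2.76 CPM of Ccna2 in homozygous libraries 1 and 2, and at most 1.00 and 1.14 CPM in the other 4. Cdk1 was at 1.33 to 1.86 CPM in the heterozygous libraries, with homozygous libraries 1 and 2 at 1.94 and 1.80 CPM, a log2 fold change of 0.08 ± 0.24 (SE; adjusted p = 0.861). Among replication genes, Mcm2 was at 7.91, 8.52 and 7.77 against 9.47, 9.35 and 8.16 CPM (0.16 ± 0.11 SE), and Pcna at 38.9, 46.0 and 43.3 against 47.2, 45.4 and 43.4 CPM (0.08 ± 0.08 SE). Cdc6, which loads the helicase, was at 0.33, 0.42 and 0.72 against 1.06, 0.87 and 0.33 CPM (0.61 ± 0.47 SE).

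Foxm1 and Mybl2, the factors that drive late cell cycle genes, had log2 fold changes of 0.28 ± 0.25 and 0.49 ± 0.26 (SE), with adjusted p values of 0.481 and 0.238. Mybl2 was at 1.00, 0.96 and 1.11 CPM in the heterozygous and 1.40, 1.27 and 1.65 CPM in the homozygous libraries, with the highest level in library 3. By role, the medians of the log2 fold changes were 1.04 for the 4 cyclins, 0.62 for the 4 chromosomal passenger and kinetochore genes, 0.28 for the 6 spindle genes and 0.16 for the 8 licensing genes. The cyclin median rests in part on Ccnb1 and Ccnb2, which passed the filter on low counts only with the homozygous libraries, so it is no support. Mcm5 was the one member below 0, at -0.05 ± 0.15 (SE).

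**Figure D2:**
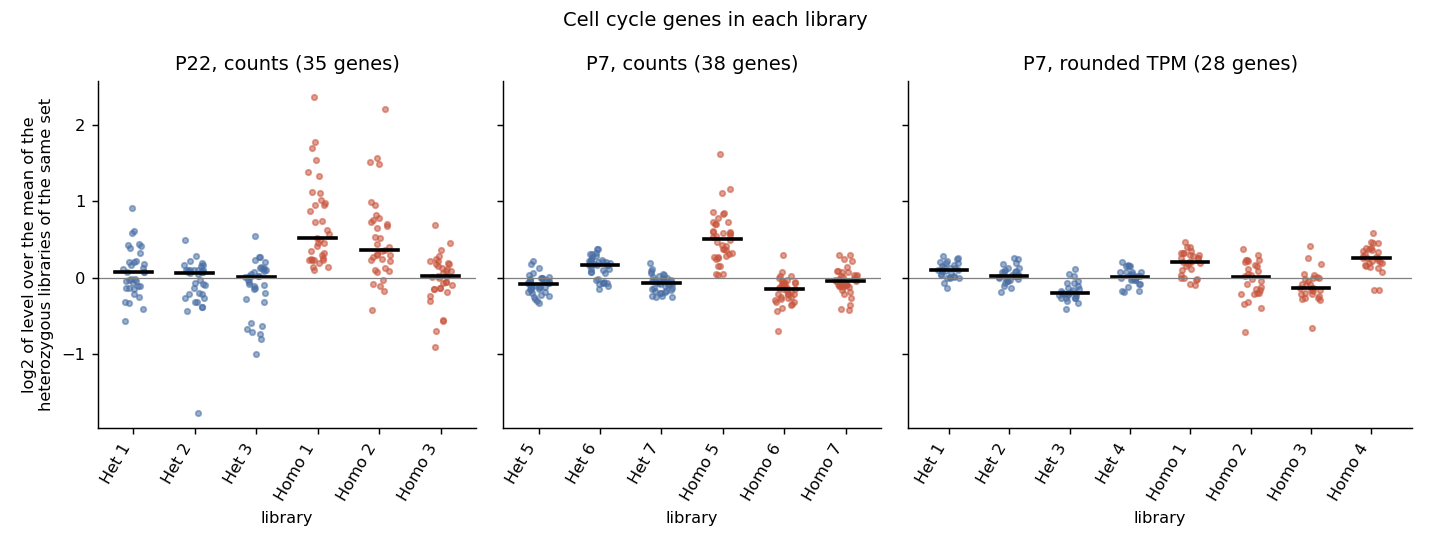
Log2 of each gene's level over the mean of the heterozygous libraries of the same set (y axis), for each library (x axis), in the P22 libraries, the P7 libraries in counts and the P7 libraries in rounded TPM. Points are genes that were tested, blue for heterozygous and red for homozygous libraries, and black bars are medians. The medians of P22 homozygous libraries 1 and 2 (0.52 and 0.36) and of P7 homozygous library 5 (0.51) stand above the others of their sets.

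The upward lean at P22 was seen in 2 of the 3 homozygous pools. Relative to the mean of the heterozygous libraries, the median member was 1.43-fold in homozygous library 1 and 1.28-fold in library 2, and 1.01-fold in library 3. All 35 members tested were above the heterozygous mean in library 1, 30 in library 2 and 19 in library 3. Library 1 was the highest of the 6 libraries in 23 members, library 2 in 9 and library 3 in 2. These counts by library were not made over all genes, so how far they are particular to the members is not known. When libraries 1 and 2 were both left out, a setting chosen after the data were seen, 36 members were tested, 20 were above 0, the median was 0.01 and 0 were called. Mki67 then had a log2 fold change of 0.35 with an adjusted p of 0.628, where the lone homozygous library is assumed to vary like the heterozygous ones.

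Genes of blood cell precursors, of which the examples below were chosen after their values were seen, were highest in the same 2 libraries. Slc4a1, the anion exchanger of red cells and their precursors, was at 4.94, 3.65 and 3.26 CPM in the heterozygous and at 18.7, 13.8 and 3.35 CPM in the homozygous libraries 1 to 3. Mpo, the myeloperoxidase of neutrophil precursors, was at 0.86, 0.23 and 0.37 against 6.82, 3.10 and 0.15 CPM. S100a8, a neutrophil protein, was at 3.55, 1.24 and 1.54 against 10.3, 9.33 and 1.85 CPM. For all 3, homozygous library 3 lay with the heterozygous libraries or below them.

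Of the 15 listed neutrophil granule genes, 14 were highest in homozygous library 1 or 2. The 15 summed to 8.26 to 22.9 CPM in the other 4 libraries, and to 68.2 and 56.7 CPM in homozygous libraries 1 and 2. Of the 10 erythroid genes found, 8 were highest there, although their sum, which is set by the abundant globins of mature red cells, was 1714 to 2402 CPM there and 1274 to 2367 CPM in the others. Of the 9 genes of B cell progenitors, 6 were highest there, with sums of 6.65 and 3.97 CPM against 2.36 to 3.63 CPM. All 7 macrophage genes were also highest there, at 185 and 203 CPM in sum against 132 to 158 CPM. Of the 7 bone genes only 2 were, and their sums of 278 and 303 CPM lay within the 174 to 436 CPM of the others. None of these genes was at 0 throughout the P22 libraries. Among them, Slc4a1 was called higher with genotype at P22. The neutrophil collagenase Mmp8 was also called, but its reads in the heterozygous libraries were too few to pass the filter on low counts without the homozygous ones, so the call is no support. It was higher in all 3 homozygous libraries, at 0.631 ± 0.0904 against 0.0914 ± 0.0127 CPM (SD, n = 3), and so did not have the shape of the other precursor genes. The part of such cells in the levels of the cell cycle genes was not tested.

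**Figure D3:**
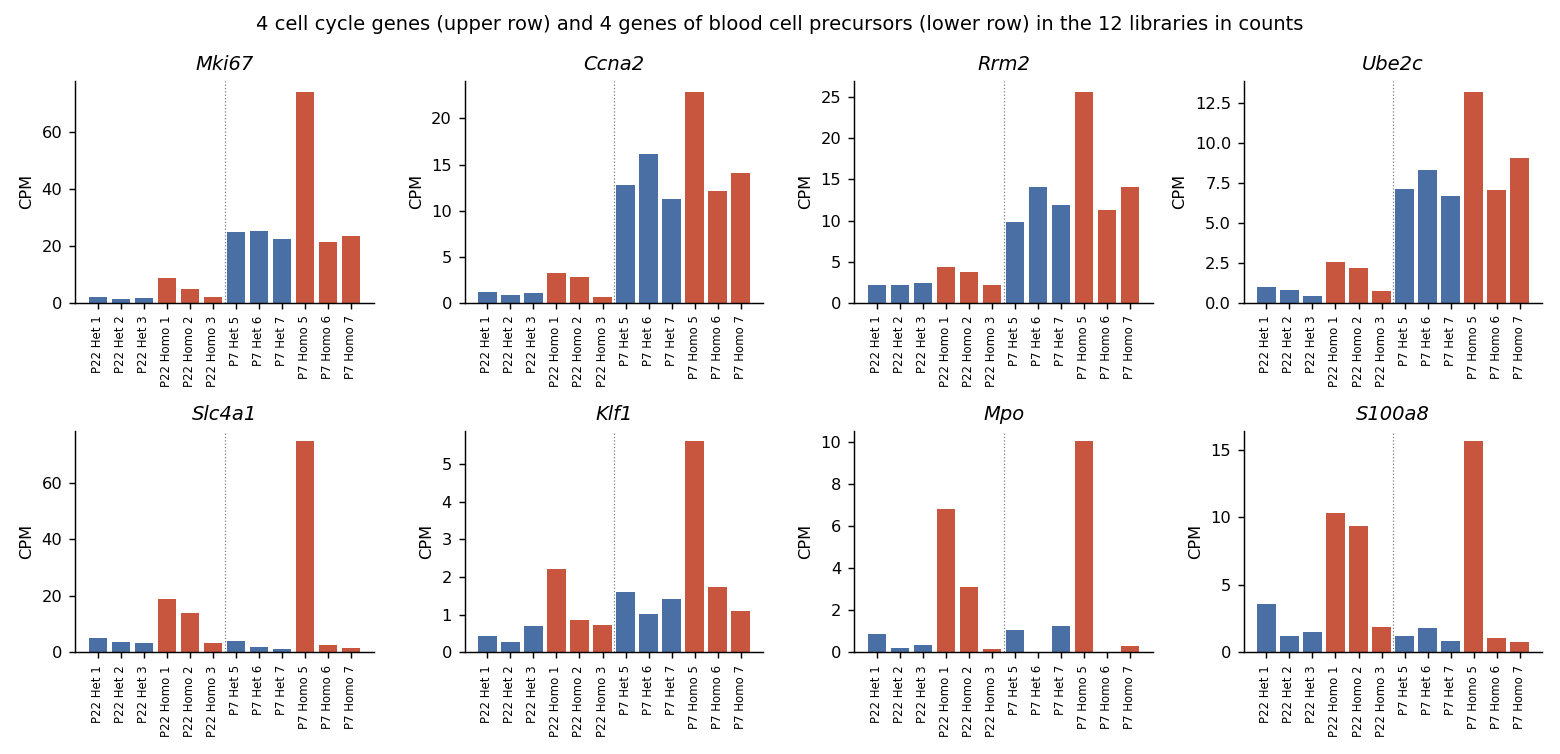
CPM (y axes, from 0) of Mki67, Ccna2, Rrm2 and Ube2c (upper row) and of Slc4a1, Klf1, Mpo and S100a8 (lower row) in the 12 libraries in counts, blue for heterozygous and red for homozygous. All 8 genes are higher in P22 homozygous libraries 1 and 2 than in the other P22 libraries, and highest of all P7 libraries in homozygous library 5, where Mki67 reaches 74.3 and Slc4a1 74.6 CPM.

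Beyond the 38 genes, none of the 37 G1 regulators tested at P22 was called, while 3 of 67 further cell cycle genes tested were called higher in the homozygous libraries and 0 lower. Over all genes tested, 1.74% were called higher and 1.41% lower. Anln, anillin of the cleavage furrow, was at 33.5 ± 1.76 and 50.8 ± 11.2 CPM (log2 fold change 0.60 ± 0.13 SE, adjusted p = 0.0165). Pole, the catalytic subunit of DNA polymerase epsilon, was at 4.30 ± 0.226 and 6.17 ± 0.942 CPM (0.52 ± 0.15 SE, adjusted p = 0.0497). Stil, a centriole duplication factor, was at 0.210 ± 0.0647 and 0.589 ± 0.156 CPM (1.47 ± 0.43 SE, adjusted p = 0.0498), and passed the filter on low counts only through the homozygous libraries, where it had to differ, so its call is no support. In all 3, every homozygous library was above every heterozygous one. Anln was also one of the few cell cycle genes that rose with age, from 10.6 ± 2.02 CPM at P7 to 46.6 ± 13.1 CPM at P22 (SD, n = 6).

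At P7, the same question was asked in 2 sets of libraries, which were tested apart because their units differ. In the libraries in counts, 38 members were tested and 0 were called in edgeR, where 0% of the 16026 genes tested were called in either direction. At an unadjusted p under 0.05 there were 0 members and 763 of all genes (4.76%). DESeq2 also called 0 members, and 44 genes higher and 4 lower over all genes. The log2 fold changes of the members had a median of 0.11, and 31 of 38 were above 0, against 50.9% of all genes. In all 38 members the genotypes overlapped. Over all genes, every homozygous library was above every heterozygous one in 5.76% and below in 4.64%.

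In the P7 libraries in counts, a single homozygous pool stood above the others. Mki67 was at 24.8, 25.3 and 22.6 CPM in the heterozygous libraries 5 to 7 and at 74.3, 21.3 and 23.4 CPM in the homozygous libraries 5 to 7. Homozygous library 5 held 2.94 times the level of the next library, and the other 5 lay close together. The log2 fold change was 0.71 ± 0.46 (SE; adjusted p = 0.894), and -0.11 without homozygous library 5. Rrm2 was at 9.83, 14.0 and 11.9 against 25.7, 11.3 and 14.1 CPM, Birc5, survivin of the passenger complex (named after its values were seen), at 4.76, 6.47 and 4.36 against 11.6, 4.17 and 5.51 CPM, and Cdc6 at 3.81, 3.13 and 2.90 against 5.85, 2.76 and 2.45 CPM. In each, library 5 was the highest, and the other homozygous libraries lay within or below the heterozygous ones or at their upper edge.

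Homozygous library 5 was the highest of the 6 libraries in 34 of 38 members and above the heterozygous mean in all 38, with a median ratio of 1.42 to that mean. These counts were not made over all genes, so how far they are particular to the members is not known. By role, the median ratio was smallest in DNA synthesis, at 1.11, and in licensing, at 1.22. Pcna was at 58.7, 62.9 and 57.8 against 61.9, 56.6 and 60.6 CPM, and Mcm2 at 26.0, 25.2 and 26.3 against 30.7, 25.1 and 24.1 CPM. Genes of these roles differed, with log2 ratios of 1.11 in Rrm2, 0.83 in Cdc6 and 0.73 in Cdt1. The lowest log2 ratio of a member, 0.04, was that of Cdc20. Ccnb1 was at 7.92, 11.8 and 7.69 against 11.9, 8.28 and 8.56 CPM, Aurkb at 5.14, 7.27 and 5.19 against 8.96, 4.88 and 4.44 CPM, and Bub1 at 3.10, 5.08 and 3.55 against 5.63, 2.89 and 3.05 CPM. In these 3 mitotic genes heterozygous library 6 was next to homozygous library 5. Without homozygous library 5, 7 of 38 members were above 0 and the median log2 fold change was -0.10.

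Among the other named members, Top2a was at 29.1, 35.2 and 27.3 against 46.0, 23.8 and 30.8 CPM, and Cdk1 at 9.12, 11.1 and 9.54 against 11.996, 8.54 and 8.87 CPM. Foxm1 was at 11.5, 14.1 and 11.8 against 18.8, 11.3 and 12.8 CPM, and Mybl2 at 4.27, 4.52 and 5.40 against 8.61, 4.82 and 5.795 CPM. Homozygous library 5 was the highest in all 4. Cdc20 did not have this shape: it was at 11.7, 14.3 and 12.1 against 13.0, 10.9 and 12.5 CPM, highest in heterozygous library 6, with a log2 fold change of -0.07.

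The precursor genes stood out in this library as well. Slc4a1 was at 74.6 CPM in homozygous library 5 and at 1.29 to 4.06 CPM in the other 5 libraries, Klf1, an erythroid transcription factor, at 5.61 against 1.03 to 1.73 CPM, and Mpo at 10.02 against 0.00 to 1.24 CPM. Igll1, a surrogate light chain of early B cells, was at 2.68 against 0.02 to 0.22 CPM. Of the listed genes, 14 of 15 neutrophil, 9 of 10 erythroid, 9 of 9 B cell progenitor, 6 of 7 macrophage and 6 of 7 bone genes were highest in this library. The sums were 237 CPM against 41.2 to 158 CPM for the neutrophil genes, 1465 against 403 to 1192 CPM for the erythroid, 21.6 against 5.64 to 8.31 CPM for the B cell progenitor, 342 against 264 to 303 CPM for the macrophage and 2485 against 990 to 2017 CPM for the bone genes. Most of each neutrophil sum was the single gene Mmp9, at 167 CPM in homozygous library 5 and 34.5 to 148 CPM in the other 5 libraries. No listed gene of these cells was at 0 in all 6 libraries, and their part in the levels of the members was not tested.

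**Figure D4:**
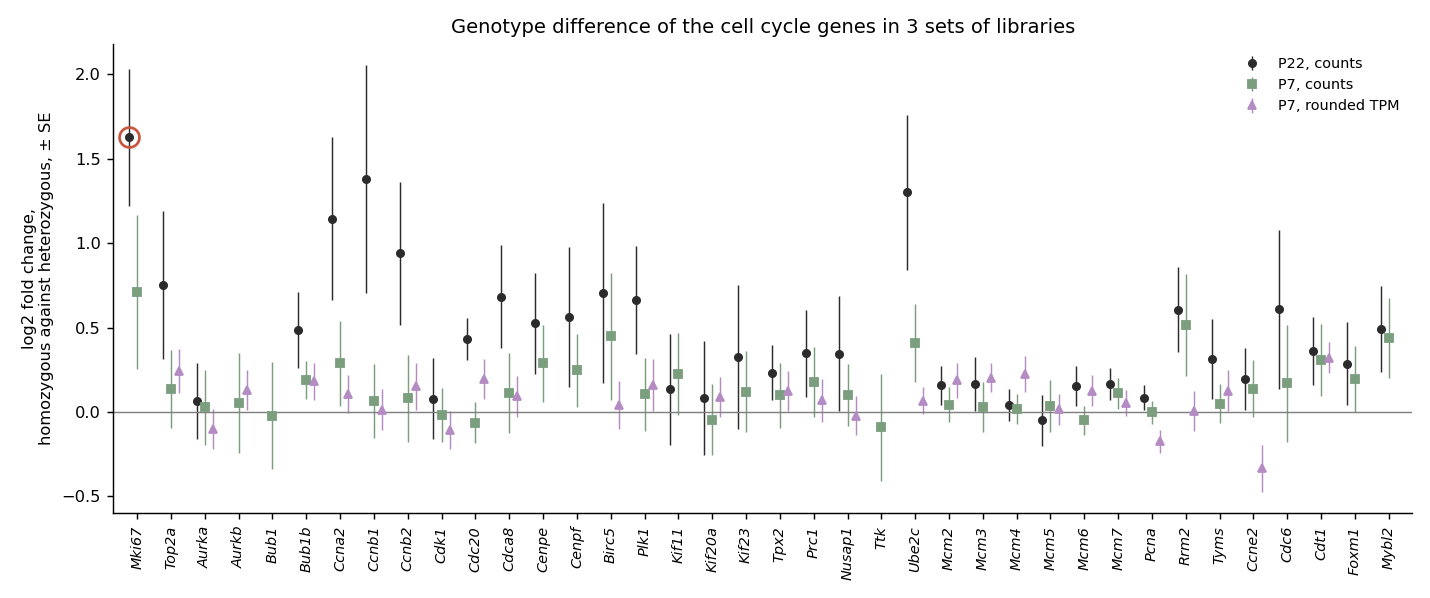
Log2 fold change, homozygous against heterozygous (y axis, bars are SE), of the 38 genes in the P22 libraries (black circles), the P7 libraries in counts (green squares) and those in rounded TPM (violet triangles); genes that were not tested have no symbol. The ring marks Mki67 at P22 (1.63), the one gene called, and the medians of the 3 sets are 0.35, 0.11 and 0.10.

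In the libraries in rounded TPM, 28 members had a mean of at least 5 TPM and were tested. The 10 below were Mki67, Bub1, Cenpe, Cenpf, Kif11, Kif23, Ttk, Cdc6, Foxm1 and Mybl2, and the low ones move in steps of a whole TPM. By limma, 0 of the 28 were called, where 0.767% of 11740 genes were called in either direction (70 higher and 20 lower, or 283 and 9 without TMM scaling of the TPM, which moved the median of all genes to 0.12). At an unadjusted p under 0.05 there were 4 of the 28 members, Mcm3 and Cdt1 higher and Pcna and Ccne2 lower, against 34.3% of all genes, a larger share than that of the members. The median log2 fold change was 0.10 on the log2(TPM + 1) scale, and 23 of 28 were above 0, against 51.4% of all genes.

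Cdt1 was at 4.95, 4.03, 4.30 and 4.39 TPM in the heterozygous libraries 1 to 4 and at 5.84, 5.73, 5.90 and 5.57 TPM in the homozygous ones (log2 fold change 0.32 ± 0.09 SE, adjusted p = 0.0545). It was the one member tested in which every homozygous library was above every heterozygous one, which held for 8.60% of all genes, and the gap is about the size of the rounding. Pcna was at 129, 138, 154 and 146 TPM in the heterozygous and 134, 122, 118 and 126 TPM in the homozygous libraries (-0.17 ± 0.07 SE, adjusted p = 0.107). The genotypes overlapped in Pcna through homozygous library 1.

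Mki67 was at 2.97, 3.02, 3.23 and 2.20 TPM in the heterozygous and 3.89, 3.82, 2.95 and 5.57 TPM in the homozygous libraries, too low to be tested. Top2a was at 12.9, 12.1, 9.68 and 9.88 against 13.6, 12.4, 10.8 and 16.7 TPM (0.24 ± 0.13 SE, adjusted p = 0.217), with homozygous library 4 the highest. Cdk1 was at 8.91, 10.1, 7.53 and 8.78 against 8.76, 6.69, 7.87 and 9.28 TPM (-0.11 ± 0.11 SE, adjusted p = 0.529). Mcm2, at 10.8 to 14.8 TPM against 12.8 to 16.5 TPM, Ccnb1, at 8.60 to 10.1 against 7.87 to 11.7 TPM, Aurkb, at 5.38 to 8.06 against 6.69 to 8.35 TPM, and Rrm2, at 14.0 to 16.8 against 12.8 to 18.6 TPM, overlapped between genotypes.

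Homozygous libraries 4 and 1 held the highest level in 15 and 7 of the 28 members, with median ratios of 1.19 and 1.15 to the heterozygous mean, and heterozygous library 3 had the lowest ratio, 0.870. Here too the counts were not made over all genes. Of the listed precursor genes, 0 of 10 erythroid, 0 of 9 B cell progenitor and 3 of 15 neutrophil genes were highest in homozygous library 4. These counts cannot be set against those of the libraries in counts. Many of these genes held 0 or 1 TPM before scaling, and a tie at 1 TPM could not be highest in library 4, where its scaled value was lowest. Klf1, for example, was at 0.928 TPM there and at 0.955 to 1.10 TPM in the others. The neutrophil sum was highest in homozygous library 1, at 236 TPM, and 194 TPM in library 4, against 92.5 to 143 TPM in the other 6. Much of these sums was the single gene Mmp9, at 153 and 108 TPM in homozygous libraries 1 and 4 and 30.1 to 78.6 TPM in the other 6. Ctsg, Cebpe, Ms4a3, Epb42, Rhag and Pax5 were at 0 in all 8 libraries. The further cell cycle genes and the G1 regulators had 0 genes called with genotype in either P7 set. Over all genes, 0% were called in the libraries in counts and 0.767% in those in rounded TPM.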

How the data were processed

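Poly(A) RNA of 20 cochlear libraries was sequenced and processed by the authors with STAR and Salmon against mm10. The annotation release and strand setting were not given in the sources used here. The deposited estimated counts (P22, and P7 libraries 5 to 7), made by the authors per gene with no further scaling, were rounded to whole numbers and tested with edgeR 4.0.16 (quasi-likelihood, filterByExpr, TMM, Benjamini-Hochberg adjustment) in R 4.3.3. The deposited values of P7 libraries 1 to 4 were whole numbers whose unit no source used here states. They were taken as TPM rounded by the authors before they were deposited, since each library sums to 999644 to 999777, and were treated as a score and not as counts. They were tested with limma 3.58.1 on log2(TMM-scaled TPM + 1) in genes of at least 5 TPM on average. DESeq2 1.42.0, other scalings and filters, a replicate block and fits leaving out libraries were alternatives, and leaving out P22 homozygous libraries 1 and 2, or these and P7 homozygous library 5, was chosen after seeing the data. The fits were tested on simulated data. The members and lists were chosen with earlier results of these data known. Values per library were given for members called with genotype and for 12 members fixed by role, and for age the 5 largest and 5 smallest falls of the members and the 3 largest rises and falls of the G1 regulators. Samples were grouped by genotype and age in the labels. Each library is a pool, and p-values measure the spread between pools.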

Additional observations from a re-analysis of the deposited data

Results flagged for a closer look

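Of 56 groups of 4 P7 libraries in rounded TPM (28 genes in each genotype), 2 held a library far from the others, where chance flags about 1 in 20 groups. Both were heterozygous library 3, which was the lowest. Ccna2 was at 9.68 TPM there against 11.9 to 12.1 TPM in the other heterozygous libraries, a gap of 0.909 of the range, and Ccnb1 was at 8.60 TPM against 9.88 to 10.1 TPM, a gap of 0.864 of the range. Dixon's limit for 4 samples is 0.829. The same library had the lowest median ratio of the members to the heterozygous mean, 0.870. Groups of 3 libraries were not examined in this way.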

How the results depend on the processing

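At P22, 1 member, Mki67, was called in the reported fit. With adjusted p under 0.05 alone there were 2 (Mki67 and Cdc20), with DESeq2 2 (Mki67 and Ube2c) and with a replicate block 2 (Mki67 and Ube2c). Leaving out 1 library gave 0 to 4 members called, with 4 (Ccna2, Mki67, Rrm2 and Ube2c) without homozygous library 3 and 0 without any of the other 5. The log2 fold change of Mki67 was 1.05 to 1.996 over these fits. Without homozygous libraries 1 and 2 there were 0, and the values of Top2a (-0.31), Cdk1 (-0.15), Rrm2 (-0.078) and Cdc6 (-0.58) turned negative. Cdk1 at P22 ranged from -0.057 to 0.18 when 1 library was left out. In both P7 sets and in the interaction, 0 members were called under every alternative run, and with age 33 to 38 were. When 1 library was left out of the P7 libraries in counts, signs turned for Mki67 (-0.11 to 1.01), Top2a (-0.16 to 0.33), Cdk1 (-0.19 to 0.071), Ccnb1 (-0.12 to 0.29), Aurkb (-0.34 to 0.24), Bub1 (-0.40 to 0.21), Mcm2 (-0.071 to 0.11), Pcna (-0.029 to 0.036), Cdc6 (-0.33 to 0.40), Foxm1 (-0.052 to 0.33) and Cdc20 (-0.12 to 0.031), and in rounded TPM for Ccnb1 (-0.068 to 0.11) and Rrm2 (-0.078 to 0.092). Aurkb was at -0.00083 with the replicate block. The cause was not tested. Without the scaling of TPM, the median member was at 0.21 and all genes at 0.12. Replicate numbers are not shown to pair the libraries: correlations of same-numbered libraries were -0.02 to 0.03 at P22, -0.19 to 0.08 in P7 counts and -0.23 to -0.01 in rounded TPM. At P22, 3 members had too few reads to be tested, and in rounded TPM 10 were below 5 TPM.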
